A study of Mus musculus with 15 samples.

Results

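The kinase genes described here are the calcium/calmodulin-dependent kinases and their regulators (Camk), protein kinase C (Prkc), the catalytic and regulatory subunits of cAMP-dependent protein kinase, PKA (Prkac and Prkar), and the numbered MAP kinases (Mapk). They were picked by gene symbol alone, and 41 of the 26628 genes in the expression table matched, namely 13 Camk, 9 Prkc, 6 Prkac or Prkar and 13 Mapk genes. All 41 were among the 15213 genes tested, and 40 passed the filter on low values in each brain region, whereas Mapk13 passed through the cerebellum only. RNA came from cerebellum (Ce) and striatum (St) of Hsd:ICR males aged 6 weeks in the labels, from a line bred for high voluntary running in wheels (Hi, labelled Selected) and from a control line (Co). Every mouse of both lines had a running wheel for 7 days before its brain was taken, so no sedentary group was compared. The groups held 4 samples each of CeCo, CeHi and StCo and 3 of StHi. There was 1 line of each kind, so selection for running and any other difference between the lines cannot be told apart, and labels do not state whether a Ce and a St sample came from the same mouse.

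These kinases carry signals from second messengers to proteins inside the neuron. Calcium bound to calmodulin activates the CaMK enzymes, with CaMKK switching on CaMKI and CaMKIV, and CaMKII acting at the synapse. Cyclic AMP releases the catalytic subunits of PKA from the regulatory subunits, calcium and diacylglycerol activate PKC, and MAP kinases (ERK, JNK and p38) stand at the end of cascades that growth factors, transmitters and stress set off. In the striatum PKA is known as the effector of dopamine receptors, and in the cerebellum PKC and CaMK genes are known for their part in plasticity at Purkinje cell synapses.

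The promoters of 4 genes are printed because their genes had the largest region differences in either direction among members with a RefSeq window. For St these were Camkv and Prkar2b, and for Ce these were Mapk12 and Prkcd, with Mapk13 left out because it passed the filter on low values in Ce only. Each run is 300 bases, from 250 before to 50 after the annotated start in RefSeq on GRCm38.p6, written in the direction of the gene. Capitals mark GC boxes (GGGCGG, or CCGCCC on the other strand) and, in Prkcd, a TATAAA box. Camkv lies at chr9:107935670-107935969 on the plus strand, Prkar2b at chr12:32061228-32061527 on the minus strand, Mapk12 at chr15:89140654-89140953 on the minus strand and Prkcd at chr14:30626159-30626458 on the minus strand.
Camkv: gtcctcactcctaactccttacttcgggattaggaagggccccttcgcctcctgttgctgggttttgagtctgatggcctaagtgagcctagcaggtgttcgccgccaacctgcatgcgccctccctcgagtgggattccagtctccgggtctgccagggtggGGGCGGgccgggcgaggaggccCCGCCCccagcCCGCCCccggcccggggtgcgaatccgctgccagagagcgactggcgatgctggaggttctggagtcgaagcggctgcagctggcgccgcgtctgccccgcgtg
Prkar2b: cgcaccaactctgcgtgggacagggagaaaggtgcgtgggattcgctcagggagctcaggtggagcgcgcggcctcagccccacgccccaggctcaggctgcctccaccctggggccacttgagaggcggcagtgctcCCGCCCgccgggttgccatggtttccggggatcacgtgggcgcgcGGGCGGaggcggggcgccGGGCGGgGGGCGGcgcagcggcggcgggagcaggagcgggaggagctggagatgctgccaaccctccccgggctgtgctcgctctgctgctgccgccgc
Mapk12: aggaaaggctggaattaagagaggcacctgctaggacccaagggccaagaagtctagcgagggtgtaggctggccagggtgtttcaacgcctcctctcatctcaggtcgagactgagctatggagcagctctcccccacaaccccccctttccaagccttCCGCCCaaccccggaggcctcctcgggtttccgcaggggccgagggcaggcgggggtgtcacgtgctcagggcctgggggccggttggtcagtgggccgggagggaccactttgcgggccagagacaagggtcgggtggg
Prkcd: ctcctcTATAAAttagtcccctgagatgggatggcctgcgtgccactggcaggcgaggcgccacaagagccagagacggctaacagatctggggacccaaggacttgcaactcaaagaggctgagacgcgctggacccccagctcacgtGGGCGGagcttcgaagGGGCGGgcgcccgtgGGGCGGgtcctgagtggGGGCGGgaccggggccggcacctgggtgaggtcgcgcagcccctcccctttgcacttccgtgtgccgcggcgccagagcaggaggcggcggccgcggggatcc
The windows held 3, 4, 1 and 4 GC boxes, in the order printed, and none held the CRE half-site (TGACG or CGTCA), with both strands searched. Prkcd alone of the 4 held a TATAAA box, at the upstream end of its window and far from the annotated start. Of the 30 members with a window, 25 (83.3%) held a GC box against 35.7% of 32851 RefSeq windows of that length. The CRE half-site, the core of the element that CREB binds, was in 13 of 30 (43.3%) against 20.8% of all windows, and TATAAA was in 1 (3.33%) against 13.6%. The median GC content was 69.7% in the members and 52.7% over all windows. The members had all passed the filter on low values and counted with 1 window each, also where RefSeq held several. The reference was all RefSeq windows, an unlike set, and whether other tested genes differ from it in the same way was not examined. Letters in a window are a description and not a measured binding site.

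The deposited values are fragment counts divided by a library-size factor, called normalized counts here, in which 1 fragment equals 0.841 to 1.30. Samples held 32909389 to 47485707 fragments, and 3 fragments, taken as the floor of detection, correspond to 2.52 to 3.89 normalized counts. No member was at this floor in any sample. The labelled tissues fitted their markers, because all 8 tested medium spiny neuron genes were higher in St and all 6 granule cell genes were higher in Ce. CeHi replicate 3 stood apart among the Ce samples, with 2 of the 6 thalamic genes above the range of the other 7, Slc17a6 at 2267 against 654 to 1190 and Tcf7l2 at 1183 against 176 to 237. Changes in these bulk samples may be fewer cells of a type or less RNA per cell, which cannot be told apart. Nothing in the labels says whether the samples of a group came from separate litters or cages, and P-values measure the spread between samples.

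Region separated the kinase genes far more than line did. Mapk13 had 0 St samples at 1 CPM and entered the test through Ce, where it is high, so it is left out of these counts. Between St and Ce, averaged over lines, 34 of the other 40 members differed at an FDR-adjusted P-value under 0.05, 26 higher in St and 8 higher in Ce. Of all genes tested 80.2% were called, 39.6% higher in St and 40.6% higher in Ce, so the share of members called was near the background. The median log2 fold change (St minus Ce) of these 40 was 0.27 and its median size 0.83, beside -0.01 and 0.44 over all genes. Members higher in St included all 5 PKA genes called, 10 of 13 Camk and 7 of 9 Prkc genes, while 7 of the 12 Mapk genes were called, 4 higher in St and 3 higher in Ce.

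**Figure D1:**
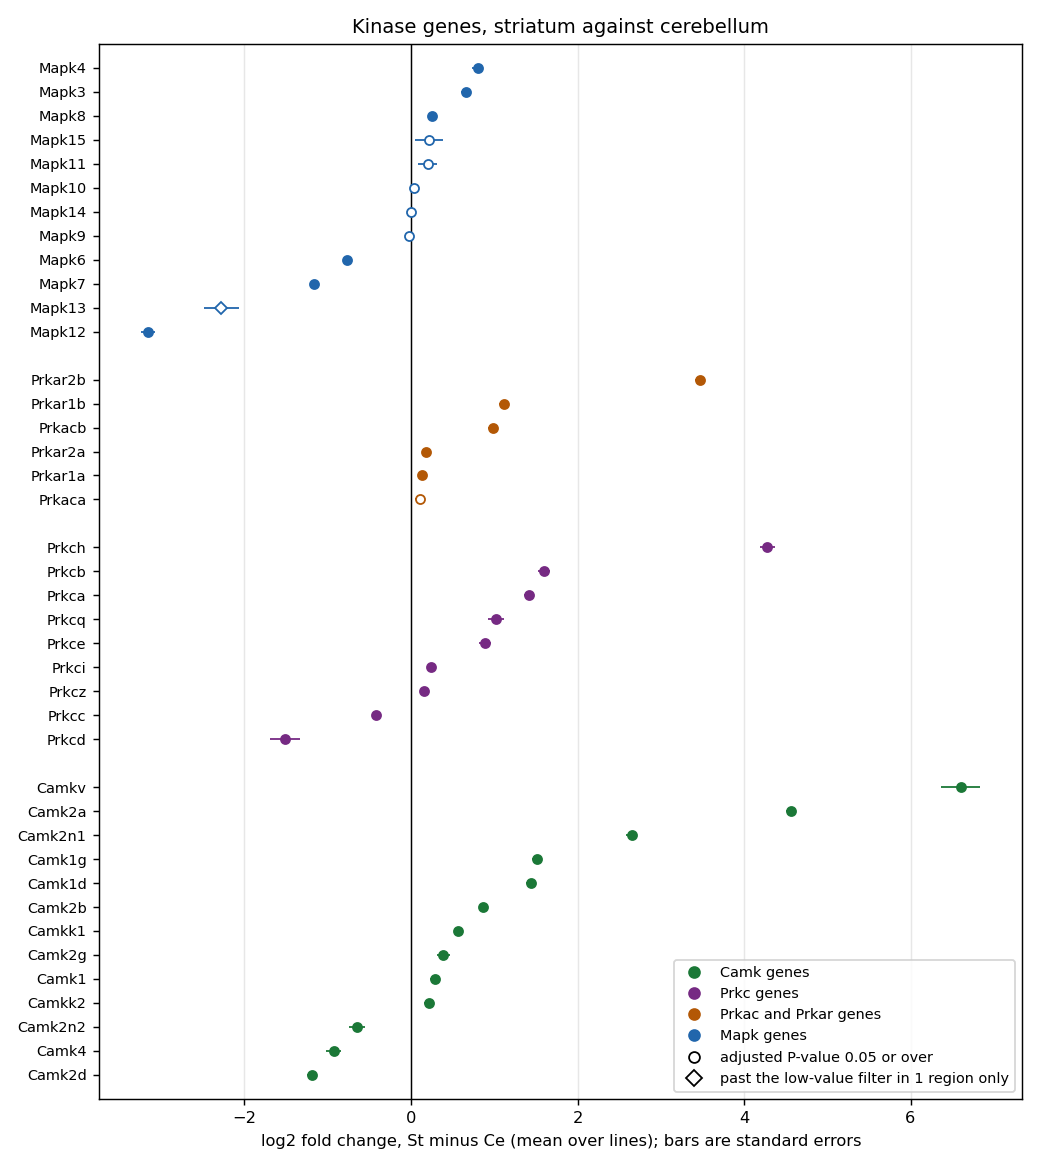
Log2 fold change of 40 of the 41 kinase genes between striatum and cerebellum (x axis, St minus Ce, mean over lines, bars are standard errors), with genes grouped by family on the y axis open circles for genes with an FDR-adjusted P-value of 0.05 or over, and an open diamond for Mapk13, which passed the filter on low values in Ce only. Camkv at 6.60 and Mapk12 at -3.16 are the ends of the range, and the Mapk genes lie on both sides of 0.

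The Camk genes had the widest range. Camkv, a vesicle-associated protein related to CaM kinases that lacks kinase activity, read 268, 269, 299.5 and 269.8 in CeCo, 282, 261, 277 and 930.0 in CeHi, 29209.8, 31152, 31204 and 34644 in StCo, and 26632, 33303 and 32477 in StHi. Every St sample exceeded every Ce sample, and Camkv was 97-fold higher in St (log2 fold change 6.60 ± 0.24 SE, FDR-adjusted P-value 2.67e-11). Camk2a, the alpha subunit of CaMKII that dominates in forebrain synapses, read 3885, 3867, 3457 and 3643 in CeCo, 4291, 4296, 4654 and 5789 in CeHi, 109373, 112373, 94959 and 103501 in StCo, and 101846, 89118 and 88019 in StHi, and it was 23.6-fold higher in St (log2 fold change 4.56 ± 0.06 SE, FDR-adjusted P-value 4.83e-19). Camk2n1, which encodes an inhibitor of CaMKII, read 11469, 12111, 11339 and 12189 in CeCo, 12581, 12530.1, 12736 and 15802 in CeHi, 89291, 81579, 66638 and 84024 in StCo, and 84165, 75839 and 72638 in StHi, a 6.3-fold difference (log2 fold change 2.65 ± 0.07 SE, FDR-adjusted P-value 3.82e-16). The second inhibitor gene, Camk2n2, went the other way and was 1.57-fold higher in Ce (log2 fold change -0.65 ± 0.10 SE, FDR-adjusted P-value 2.01e-05).

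Among the CaMKI genes Camk1g had the largest region difference, with 634, 727, 644 and 659 in CeCo, 635, 592, 671 and 645 in CeHi, 1707, 1797, 2290.2 and 1675 in StCo, and 1822, 1857 and 1858 in StHi (log2 fold change 1.51 ± 0.06 SE, FDR-adjusted P-value 2.37e-13). Camk1d had a log2 fold change of 1.44 and Camk1 of 0.29. The beta subunit gene Camk2b, known as the main form in cerebellum, was 1.82-fold higher in St, and Camk2g was 1.31-fold higher. Camk2d was 2.28-fold higher in Ce, and so was Camk4, a nuclear kinase abundant in granule cells, by 1.91-fold. The upstream kinases Camkk1 and Camkk2 had log2 fold changes of 0.56 and 0.22, both higher in St.

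Divided by exon length, the make-up of CaMKII differed between regions. Camk2a was 11.7% ± 2.04 (SD, n = 8) of the summed normalized count per kb of the 4 CaMKII genes in Ce and 66.3% ± 2.196 (SD, n = 7) in St. Camk2b was 62.8% in Ce and 27.7% in St, Camk2g was 15.5% and 4.95%, and Camk2d was 10.04% and 1.07%. Exon lengths were unions of annotated exons, 22493 bases for Camk2d, so long annotated isoforms that the tissue does not use lower a gene's share.

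**Figure D2:**
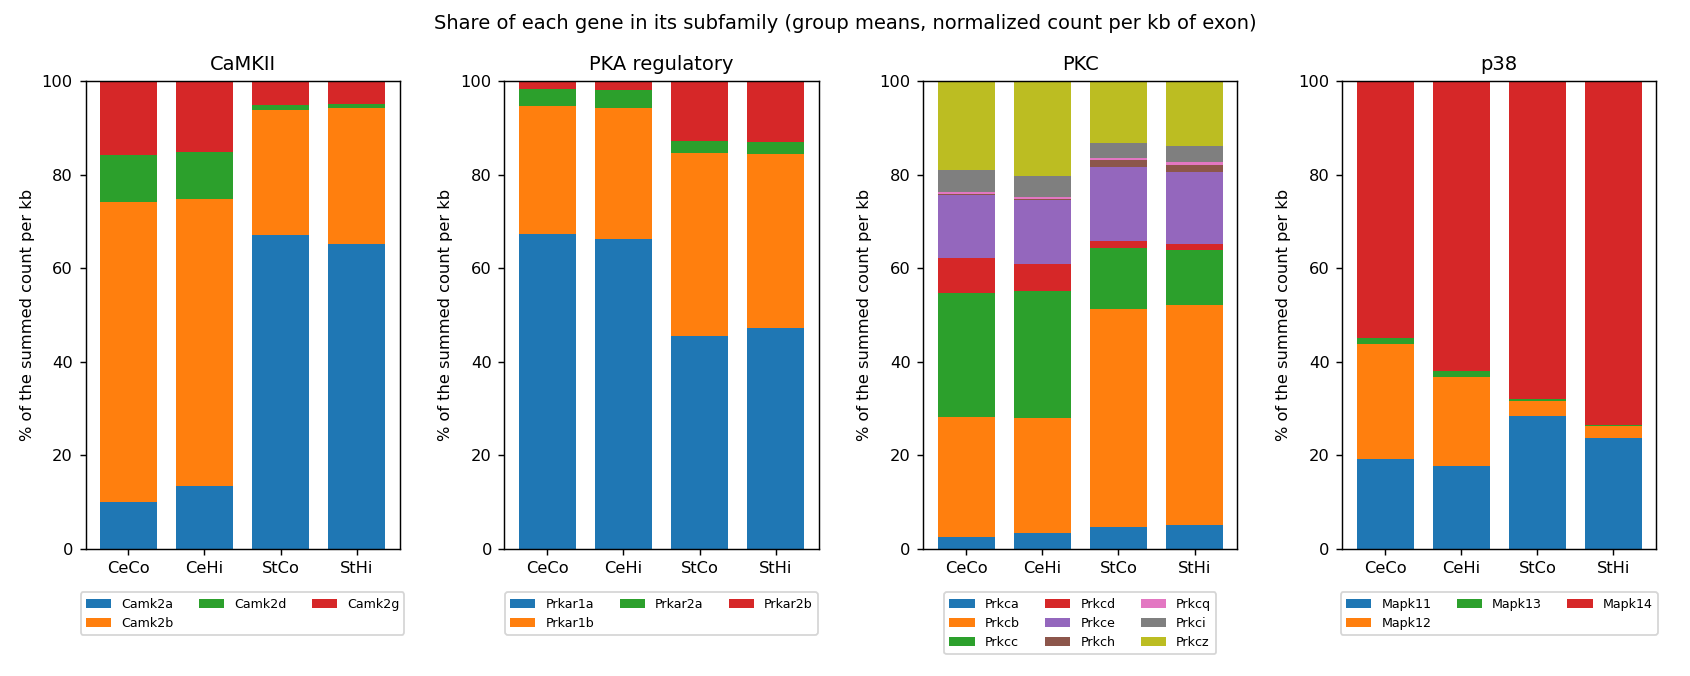
Share of each gene in the summed normalized count per kb of exon of its subfamily (y axis, %), as stacked means of the samples of each group (x axis). In CaMKII, Camk2a takes 9.94% and 13.4% in CeCo and CeHi but 67.1% and 65.1% in StCo and StHi, and Mapk12 falls from over 19% of p38 in Ce to under 4% in St.

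The PKA genes were higher in St wherever they differed. Prkar2b, the RII-beta regulatory subunit, read 619.8, 686, 683 and 601 in CeCo, 842, 733, 797 and 950.1 in CeHi, 8353, 7956, 8539 and 8559 in StCo, and 7049.8, 8462 and 8141 in StHi. The regions did not overlap, and the difference was 11.1-fold (log2 fold change 3.47 ± 0.06 SE, FDR-adjusted P-value 2.03e-18). Prkar1b read 12017, 11691, 9897 and 11137 in CeCo, 12233, 11261, 11424 and 13066 in CeHi, 28449.5, 28532, 26236 and 23337 in StCo, and 27425, 20611 and 23011 in StHi (log2 fold change 1.12 ± 0.06 SE, FDR-adjusted P-value 3.61e-11), and the catalytic subunit Prkacb read 17431, 17034, 15184 and 15895 in CeCo, 17610.0, 17304, 15604 and 17303 in CeHi, 36027, 32285, 30594 and 35659 in StCo, and 30969.7, 31019.6 and 34476 in StHi (log2 fold change 0.98 ± 0.05 SE, FDR-adjusted P-value 3.24e-12). Their fold differences were 2.17 and 1.98.

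Prkar2a, the RII-alpha subunit, read 2530.3, 2451, 2422 and 2329.8 in CeCo, 2643, 2786, 2443 and 2588 in CeHi, 2787, 2939.6, 2853 and 2744 in StCo, and 2707, 2784 and 3166 in StHi, a 1.14-fold difference (log2 fold change 0.18 ± 0.04 SE, FDR-adjusted P-value 0.000452). Prkar1a was 1.1-fold higher in St, and its values ran from 30536 to 33141 in Ce and from 32588 to 35577 in St. The second catalytic gene, Prkaca, was not called (log2 fold change 0.11 ± 0.06 SE, FDR-adjusted P-value 0.0785). Per kb, Prkar1a made up 66.8% ± 1.23 (SD, n = 8) of the 4 regulatory subunit genes in Ce and 46.2% ± 1.58 (SD, n = 7) in St, and Prkar2b 1.84% and 12.9%. Prkacb was 48.9% of the catalytic pair in Ce and 63.6% in St.

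All 9 Prkc genes were called between regions, where 80.2% of all genes tested were called. Prkch, the eta isoform that diacylglycerol activates without calcium, read 82, 101, 94.7 and 103 in CeCo, 113, 91.8, 111 and 109.9 in CeHi, 1868, 1682, 1739 and 2306 in StCo, and 1667, 2331 and 2169 in StHi, a 19.4-fold difference toward St (log2 fold change 4.28 ± 0.09 SE, FDR-adjusted P-value 4.8e-17). Prkcb, a calcium-dependent isoform, read 22838, 21401, 18905 and 20354 in CeCo, 21651, 21824, 18629 and 17899 in CeHi, 68609, 59918, 51937 and 70415 in StCo, and 57411, 63442 and 61655 in StHi (log2 fold change 1.60 ± 0.07 SE, FDR-adjusted P-value 5.55e-13), and Prkca, of the same class, was 2.68-fold higher in St (log2 fold change 1.42 ± 0.06 SE, FDR-adjusted P-value 4.86e-13). Prkcd, the delta isoform, was the Prkc gene that leaned most to Ce, with 4501, 4765, 4349 and 3988 in CeCo, 3380.4, 3465, 3706 and 2930.5 in CeHi, 712, 1491, 2168 and 1411 in StCo, and 1337, 1272 and 1436 in StHi (log2 fold change -1.51 ± 0.18 SE, FDR-adjusted P-value 3.5e-06). The StCo samples of Prkcd ranged over 712 to 2168, wider than any other group of this gene.

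Prkcc, the older symbol of the gamma isoform gene that marks Purkinje cells, was 1.34-fold higher in Ce (log2 fold change -0.42 ± 0.05 SE, FDR-adjusted P-value 3.62e-07). The log2 fold change toward St was 1.02 for Prkcq, 0.89 for Prkce, 0.24 for Prkci and 0.16 for Prkcz. Of the summed PKC count per kb, Prkcb held 25.2% in Ce and 46.9% in St, Prkcc 26.8% and 12.5%, and Prkcd 6.61% and 1.49%. Prkcz shares 14.8% of its 50-base windows with Prkcz2, so its reads could be split between them.

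Of the MAP kinases that passed the filter in each region, Mapk12 differed most. This p38-gamma gene read 1439, 1682, 1761 and 1537 in CeCo, 1149, 883, 1141 and 1093 in CeHi, 156, 197, 184 and 148 in StCo, and 127, 117 and 122 in StHi, and it was 8.97-fold higher in Ce (log2 fold change -3.16 ± 0.08 SE, FDR-adjusted P-value 3.25e-16). Mapk13, p38-delta, was low throughout, with 67.1, 70.4, 82.8 and 65 in CeCo, 60.5, 30.6, 66.7 and 85.6 in CeHi, 22.2, 17.8, 10.5 and 20.1 in StCo, and 9.08, 7.77 and 9.5 in StHi, and every Ce sample lay above every St sample, a difference given without a test. Mapk14, p38-alpha, was level between regions at 4066 and 4062.5 (means of Ce and St), and Mapk11, p38-beta, was not called (log2 fold change 0.20 ± 0.11 SE, FDR-adjusted P-value 0.102). Per kb, Mapk12 was 21.8% ± 3.52 (SD, n = 8) of the p38 genes in Ce and 2.97% ± 0.56 (SD, n = 7) in St.

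Mapk3, the ERK1 kinase, read 3897, 4577, 4329 and 4052 in CeCo, 4565, 3925, 4430.3 and 5177 in CeHi, 6615, 7332, 6768 and 6117 in StCo, and 6449, 7399 and 7248 in StHi, and it was 1.58-fold higher in St (log2 fold change 0.66 ± 0.06 SE, FDR-adjusted P-value 1.16e-08). Mapk7, ERK5, was 2.24-fold higher in Ce (log2 fold change -1.16 ± 0.05 SE, FDR-adjusted P-value 1.78e-12). The atypical kinases were split, with Mapk4 at 0.80 toward St and Mapk6 at -0.77 toward Ce on the log2 scale. Of the JNK genes Mapk8 was 1.19-fold higher in St, whereas Mapk9 (log2 fold change -0.02) and Mapk10 (0.04), and the atypical Mapk15 (0.22), were not called.

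Ranked by normalized count per kb, Camk4 led in Ce at 14339 ± 2371 (SD), followed by Prkar1a at 7320.1 ± 182, whose ranges did not overlap. In St the order opened with Camk2n1 at 17815 ± 1761, then Camk2a at 13380.3 ± 1275 and Camkv at 8299.7 ± 709. There the ranges of Camk2n1 and Camk2a overlapped, as did those of Camkv and Prkcb, the next gene, whereas Camk2a and Camkv did not overlap. The lowest members were Prkch at 13.4 per kb in Ce and Mapk13 at 4.40 per kb in St. Of the 40 pairs of neighbours in this order, 35 overlapped in Ce and 29 in St, so most adjacent ranks were not separated by their samples.

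Between lines in the cerebellum 7 of 41 members (17.1%) were called, against 5.94% of all genes tested. Camk1, Camk2a, Prkar2b and Prkca were higher in CeHi than in CeCo (4 of 41; 2.94% of all genes were called higher), and Camkk1, Mapk7 and Mapk12 were lower (3 of 41; 2.99% of all genes were called lower). The largest of these changes was 1.51-fold, and the 34 members not called differed by at most 0.42 on the log2 scale, the value of Camkv. The median line log2 fold change of the members was 0.01, beside -0.00 over all genes, and the median sizes were 0.13 and 0.10. Without CeHi replicate 3 the count was 5, and it was 4 without CeCo replicate 3 or CeHi replicate 2. Other Ce samples mattered too. Mapk7 and Prkca lost the call without CeCo replicate 0 or CeHi replicate 0, and Camk2a and Prkca without CeCo replicate 2.

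Camk1, the CaMKI kinase that CaMKK activates (GRCm38 chromosome 6, 113334124 to 113343984, minus strand), read 1446, 1380.1, 1510.3 and 1470.3 in CeCo and 1891, 1728, 2094 and 2181 in CeHi. The lines did not overlap, and CeHi was 1.35-fold higher (log2 fold change 0.43 ± 0.08 SE, FDR-adjusted P-value 0.00261). Camkk1, the kinase above it in the cascade (chromosome 11, 73019008 to 73042073, plus strand), moved the opposite way, with 3544, 3818, 3727 and 3427 in CeCo and 3143, 2647, 2771 and 2944 in CeHi, 1.27-fold lower in CeHi (log2 fold change -0.34 ± 0.06 SE, FDR-adjusted P-value 0.000933). Both calls held without any single sample, with a log2 fold change of 0.38 to 0.50 for Camk1 and -0.38 to -0.30 for Camkk1. Camkk2 pointed the same way as Camkk1, at -0.21 ± 0.08 SE, and was not called (FDR-adjusted P-value 0.141). It was called with the replicate number as a block (-0.21, FDR-adjusted P-value 0.0387) and with sample weights (-0.24, 0.0471). Camk4, the other target of CaMKK, read 53630.2, 55918, 47367 and 50593 in CeCo and 45504, 49749, 37737 and 33348 in CeHi, with overlap between the lines (log2 fold change -0.34 ± 0.12 SE, FDR-adjusted P-value 0.107), and it was called without CeHi replicate 1 (-0.43, 0.0393).

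Camk2a (chromosome 18, 60925618 to 60988152, plus strand) was 1.27-fold higher in CeHi, at 3885, 3867, 3457 and 3643 in CeCo and 4291, 4296, 4654 and 5789 in CeHi (log2 fold change 0.34 ± 0.09 SE, FDR-adjusted P-value 0.0266). CeHi replicate 3 was the highest value. The groups did not overlap with or without it, but the difference without it was 0.25 with an FDR-adjusted P-value of 0.053. The call was also lost without CeCo replicate 2, CeCo replicate 3 or CeHi replicate 2, where it was 0.074, 0.067 and 0.051.

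Prkar2b (chromosome 12, 31958476 to 32061296, minus strand) was 1.27-fold higher in CeHi (log2 fold change 0.35 ± 0.08 SE, FDR-adjusted P-value 0.00992), every CeHi sample lying above the CeCo range of 601 to 686. Without CeHi replicate 3 it was 0.28 with an FDR-adjusted P-value of 0.029, still called, as it was without any other sample. The other PKA genes had line log2 fold changes in Ce between 0.04 and 0.10 and none was called.

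Prkca (chromosome 11, 107933387 to 108343928, minus strand) read 2456, 2774, 2392 and 2282 in CeCo and 3528, 2989, 3394 and 2591 in CeHi, and the lines overlapped at CeHi replicate 3 (log2 fold change 0.32 ± 0.08 SE, FDR-adjusted P-value 0.0266). Its FDR-adjusted P-value was 0.066 with Ce fitted alone and 0.061 to 0.080 without CeCo replicate 0, 2 or 3 or CeHi replicate 0 or 2. The delta isoform Prkcd was lower in all 4 CeHi samples (2930.5 to 3706) than in all 4 CeCo samples (3988 to 4765). It was not called (log2 fold change -0.39 ± 0.24 SE, FDR-adjusted P-value 0.409), but it was with Ce fitted alone (-0.39, FDR-adjusted P-value 0.0101), where the wide StCo values do not enter.

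Mapk12 (chromosome 15, 89130584 to 89140703, minus strand) had the largest change of the members called in Ce, 1.51-fold lower in CeHi (log2 fold change -0.60 ± 0.10 SE, FDR-adjusted P-value 0.00175). The CeHi samples lay between 883 and 1149 and the CeCo samples between 1439 and 1761, and the call held without any single sample. Mapk11, which lies 1782 bases from Mapk12 on the same strand, read 1035, 887, 912 and 988 in CeCo and 809.8, 739, 783 and 689 in CeHi, without overlap. Its difference of -0.34 ± 0.15 SE was not called in the fit over all groups (FDR-adjusted P-value 0.211), and was called with Ce fitted alone (0.0182).

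Mapk7 (chromosome 11, 61488812 to 61494406, minus strand) was 1.21-fold lower in CeHi, at 1612, 1541, 1371 and 1592 in CeCo and 1312, 1288, 1315 and 1158 in CeHi (log2 fold change -0.27 ± 0.07 SE, FDR-adjusted P-value 0.0362). The lines did not overlap, yet the call was lost with no filter on low values (0.061), with the replicate block (0.058) and without CeCo replicate 0, 1 or 3 or any of the CeHi samples (0.060 to 0.118). Mapk3 had a line log2 fold change of 0.09 in Ce, and the JNK genes lay between -0.00 and 0.05.

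**Figure D3:**
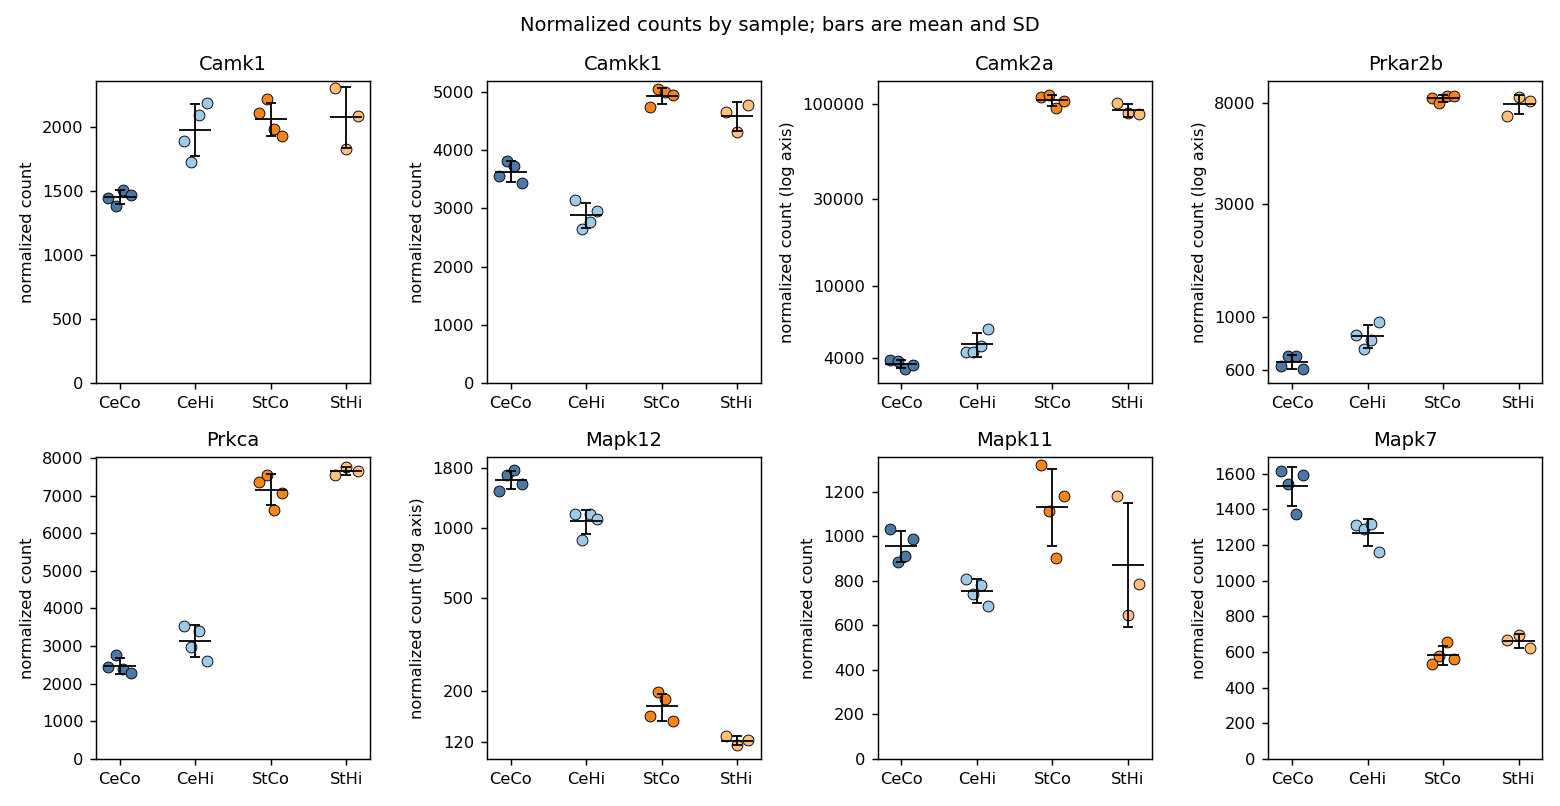
Normalized counts of the 8 kinase genes called in a line contrast (y axes, logarithmic for Camk2a, Prkar2b and Mapk12), 1 point per sample by group, with the mean and SD as bars. CeCo and CeHi do not overlap in 7 of the panels and overlap for Prkca, which follows in part from picking genes by their calls. Mapk12 is lower in Hi in both regions.

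Some values of CeHi replicate 3 moved with these results. Camkv read 930.0 there and 261 to 300 in the other 7 Ce samples, Camk2n1 15802 against 11339 to 12736, and Camk2n2 5545 against 3940.5 to 4459. Of the 6 thalamic genes Slc17a6 and Tcf7l2 were high there, as above, and the other 4 lay within the range of the other Ce samples. Of the 8 medium spiny neuron genes 6 were above the other Ce samples, among them Drd2 (109 against 18.7 to 33.6) and Tac1 (189 against 17.8 to 56.3), while the more abundant Pde10a was below them (3567 against 4675 to 6147), and 3 of the 6 oligodendrocyte genes were above. All 3 blood genes, 2 of the 6 microglial genes and 1 gene each of the Purkinje, astrocyte and endothelial lists were above too. The granule cell, Purkinje and endothelial lists each had 1 gene below. The share of all genes outside the range of the other Ce samples in CeHi replicate 3 was not counted. Camk4 was at its lowest there, 33348 against 37737 to 55918. Their part in the line results was not tested beyond leaving out that sample. Summed granule cell markers were 212007 to 239864 in CeCo and 193084 to 219008 in CeHi, and choroid plexus markers ran from 1400.1 to 116302 over the Ce samples of both lines.

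**Figure D4:**
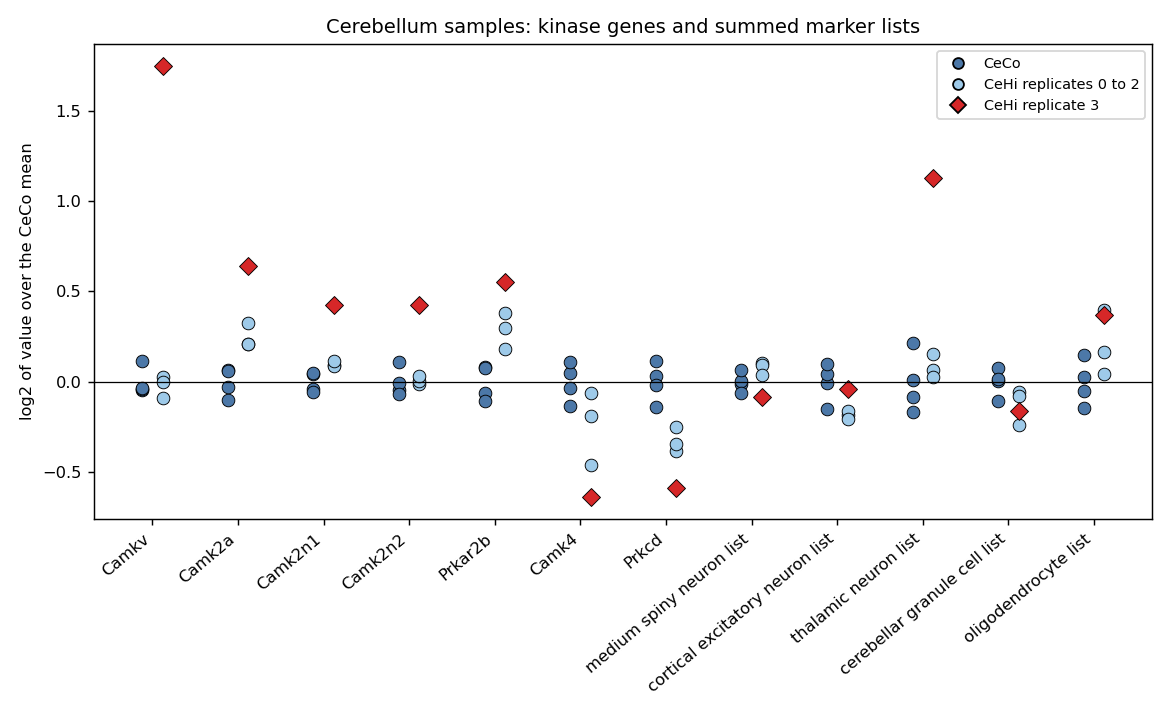
Values of 7 kinase genes and 5 summed marker lists in each cerebellum sample, as log2 of the value over the CeCo mean (y axis), with CeCo dark, CeHi light and CeHi replicate 3 as a diamond. That sample lies apart for Camkv and for the thalamic list, through 2 of its 6 genes, while Camk2a and Prkar2b are above every CeCo sample in all 4 CeHi samples.

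In the striatum 1 of 41 members was called between lines, against 2.66% of all genes. Mapk12 was 1.4-fold lower in StHi, at 156, 197, 184 and 148 in StCo and 127, 117 and 122 in StHi (log2 fold change -0.48 ± 0.11 SE, FDR-adjusted P-value 0.0285). The lines did not overlap. The call was lost under edgeR (0.052), with St fitted alone (0.14) and without StCo replicate 1 or 2 or StHi replicate 1 or 2 (0.060 to 0.114). Mapk13 read 10.5 to 22.2 in StCo and 7.77 to 9.50 in StHi, without overlap, but it had 0 St samples at 1 CPM and would not have been tested in St by itself.

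Mapk11 in St read 1322, 1117, 905 and 1182 in StCo and 1182, 645 and 786 in StHi, and StHi replicate 0 lay with the StCo samples (log2 fold change -0.42 ± 0.16 SE, FDR-adjusted P-value 0.227). Without that sample Mapk11 was called at -0.66 (FDR-adjusted P-value 0.0081), which brings the count to 2. Prkcq was higher in all 3 StHi samples (677 to 724) than in the 4 StCo samples (533 to 638), and was not called (log2 fold change 0.31 ± 0.15 SE, FDR-adjusted P-value 0.363). None of the 13 Camk, 9 Prkc or 6 PKA genes was called in St by limma. Of the 40 members that passed the filter in St, 5 had an unadjusted P-value under 0.05 there, 4 of them Mapk genes. Over all genes tested it was 2141 of 15213.

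Marker sums also differed between StCo and StHi. The thalamic list was 1922 to 2678 in StCo and 3675 to 4157 in StHi, and the oligodendrocyte list 196890.4 to 284606 and 300421 to 341456, both without overlap, and the cortical list 34657 to 51574 and 18238 to 39441. Single genes separated the lines in 3 of the 6 thalamic, 4 of the 6 oligodendrocyte and 1 of the 6 cortical genes. So did 2 of the 3 blood genes, 1 of the 6 astrocyte genes, and 3 microglial genes higher and 1 lower in StHi. The share of all genes that separated the lines in this way was not counted. Medium spiny neuron markers overlapped, at 160947 to 227243 and 170087 to 225756. Of the 65 marker genes tested in 12 lists, 1 was called in each region between lines, the microglial C1qb (0.39 in Ce and 0.44 in St, higher in Hi). Hindbrain markers, 5 of them below the filter, summed to at most 3.15 in St. The part of these sums in the St results was not tested.

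With the line difference averaged over regions, 5 of 41 members were called, against 8.48% of all genes. They were Camk1 (0.22), Prkca (0.21), Camkk1 (-0.23), Mapk11 (-0.38) and Mapk12 (-0.54). Mapk12 and Camkk1 were called without any single sample, whereas Camk1 was called in 10, Prkca in 4 and Mapk11 in 2 of the 15 fits that left out 1 sample. The count was 7 with sample weights and 6 with the replicate number as a block in both lines. It was 3 with same-numbered Co samples as a random block, where Prkca (0.0517) and Mapk11 (0.0528) lost the call. It was 2 without StCo replicate 3, and 3 without CeCo replicate 0, 1 or 3, CeHi replicate 0 or 2 or any StHi sample. Of the marker genes 8 were called in this contrast, among them Penk (0.32), Mbp (0.35), Gfap (0.29), S100b (0.19), C1qa (0.27) and C1qb (0.42), higher in Hi, and P2ry12 (-0.31), lower in Hi. Their part in the line difference of the kinase genes was not tested.

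**Figure D5:**
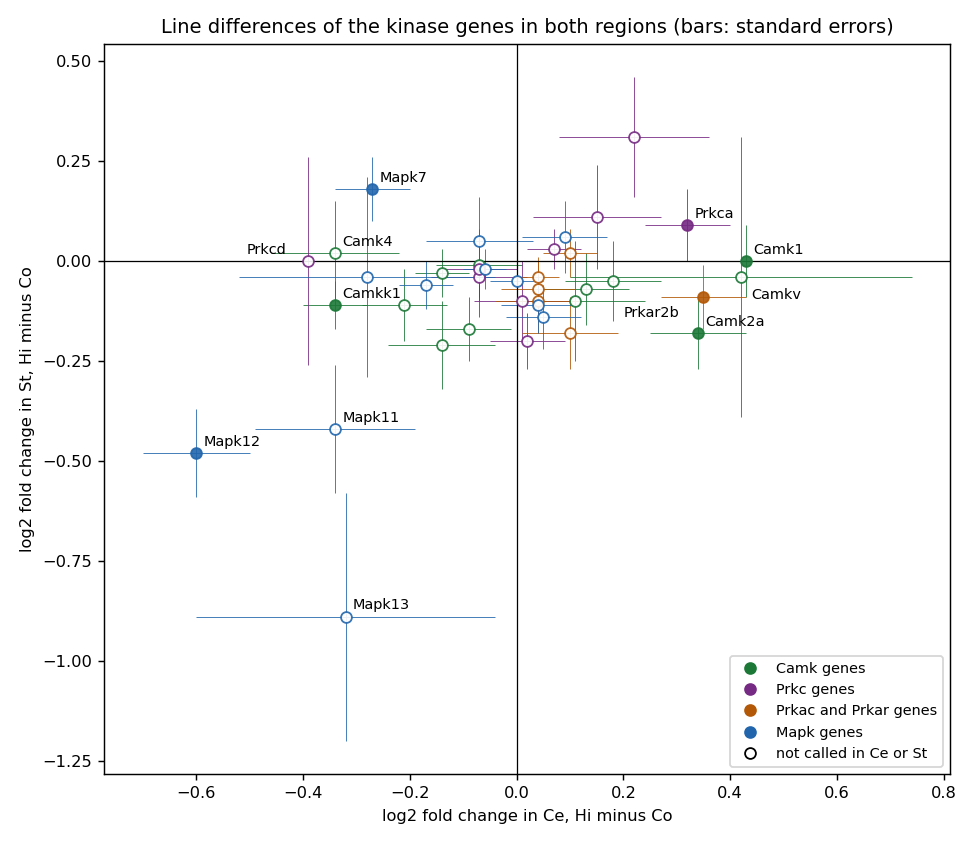
Line difference of 40 of the 41 kinase genes in cerebellum (x axis, log2 fold change, Hi minus Co) against the same in striatum (y axis), with standard errors as bars and filled circles for genes called in either region. Mapk12 lies low on both axes (-0.60 and -0.48), whereas Camk1, Camk2a and Prkar2b lie to the right and at or below 0 on the y axis.

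The line-by-region interaction, the line difference in St minus that in Ce, was called for 0 of 41 members by limma, against 0.532% of all genes. At an unadjusted P-value under 0.05 there were 7 members, beside 1454 of the 15213 genes tested. By edgeR 0 members were called, with 6 unadjusted, beside 100 of the 15213 genes called. By DESeq2 4 members were called, beside 277 of the 15213 genes. Camk2a (-0.52 ± 0.13 SE, FDR-adjusted P-value 0.0873), Mapk7 (0.46 ± 0.11, 0.0765), Prkar2b (-0.44 ± 0.11, 0.0993) and Camk1 (-0.43 ± 0.12, 0.126) came nearest, and they are the 4 that DESeq2 called. Without CeCo replicate 2 or StCo replicate 2, Mapk7 was called by limma (0.51 in both, FDR-adjusted P-values 0.0498 and 0.0264). In StHi against StCo these genes had log2 fold changes of -0.18, 0.18, -0.09 and -0.00. A line difference restricted to the cerebellum was thus not shown for them in the fit reported, and the 2 line contrasts come from different samples of the same lines.

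Ratios of related genes within a sample do not depend on the scaling, and 5 were compared between lines in each region by two-sided exact permutation tests, of which 4 are given. The log2 ratio of Camk2a to Camk2b was -2.50 ± 0.17 (SD) in CeHi and -2.98 ± 0.05 in CeCo, a difference of 0.48 without overlap (exact P-value 0.0286, the smallest possible, adjusted 0.143 over 10 tests). Camk2b itself read 29745, 31460.5, 26521 and 29527 in CeCo, 26294, 26642, 25964 and 27785 in CeHi, 49450.0, 50537, 53123 and 51140.2 in StCo, and 47927, 51714 and 51556 in StHi. The ratio of Prkar2b to Prkar1a was higher by 0.30 in CeHi, again without overlap and with the same exact P-values, while Prkar1a read 31186, 31289, 30536 and 31283 in CeCo and 32104, 31464, 32038 and 33141 in CeHi.

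The ratio of Prkacb to Prkaca was 1.75 in both lines in Ce, where Prkaca read 4967, 4779, 4753 and 4909 in CeCo and 4922, 4791, 4543 and 5925 in CeHi. The ratio of Mapk8 to Mapk10 differed by -0.01 in Ce and 0.03 in St, with overlap in both. The smallest exact P-values possible were 0.0286 in Ce and 0.0571 in St, so no adjusted P-value over the 10 tests could fall below 0.0571. Mapk8 ran from 4065 to 4725 in Ce and Mapk10 from 12931 to 15017.

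The partners of these kinases were examined as 5 lists with 132 tested genes, chosen with earlier results known. Ppp3r2, Pkn3, Dgkk, Mos and Dusp9 were listed but did not pass the filter. Between regions 123 of the 132 were called (66 higher in St, 57 in Ce), where 80.2% of all genes were called. They were 23 of 23 CaMK partners, 25 of 27 PKA partners, 28 of 28 PKC partners, 36 of 42 genes of the MAP kinase cascade and 11 of 12 phosphatases. Among CaMK partners Nrgn, a calmodulin-binding protein of forebrain neurons, had a log2 fold change of 7.31 toward St and Dapk1, a calmodulin-dependent death kinase, 3.56. Among PKA partners the anchoring protein Akap5 was at 5.22 and the phosphoprotein Arpp21 at 3.79, and among PKC partners the guanine exchange factors Rasgrp1 and Rasgrp2 were at 3.70 and 3.63. In the cascade Rps6ka1, the ERK-activated kinase RSK1, was at -3.47, higher in Ce, and Map3k15 at 2.12, and the phosphatase genes Ptpn7 and Ptpn5 (the striatal-enriched STEP) were at 5.74 and 4.90.

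Between lines in Ce 8 of these 132 genes were called, near the 5.94% of all genes. Itpr3, a calcium release channel, fell from 834 ± 46.6 in CeCo to 534 ± 67.8 in CeHi (SD, log2 fold change -0.66, FDR-adjusted P-value 0.0031), and Ryr3, another release channel, rose by 0.46. The phosphatases of ERK Dusp4 and Dusp6 rose by 0.74 and 0.29, Rps6ka2 rose by 0.24, and Mapkapk5, Akap1 and Dgka fell by 0.22, 0.26 and 0.28. The count was 4 without CeCo replicate 1 or CeHi replicate 0, 2 or 3, 5 without CeCo replicate 0 or 3, StCo replicate 1 or StHi replicate 2, and 15 with DESeq2. In St 2 were called, Map3k14 (0.37) and Dusp16 (0.28), a phosphatase of JNK, both higher in StHi, against 2.66% of all genes, with 1 left without StCo replicate 0, 1 or 3 or StHi replicate 2 and 0 without StHi replicate 1. The interaction called 0 of them by limma, against 0.532% of all genes. At an unadjusted P-value under 0.05 there were 19 of the 132, beside 1454 of all 15213 genes. Over both regions 6 were called, against 8.48% of all genes, Rcan2 (0.17) and Dusp16 (0.16) higher and Itpr3 (-0.36), Dgke (-0.22), Dgkq (-0.19) and Mapkapk5 (-0.13) lower in Hi.

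The neighbourhood of the line-called members was listed to 500000 bases on either side. Camk1 had 25 tested neighbours, of which 3 were called higher and 4 lower in CeHi, where 5.94% of all genes were called. Ogg1, a DNA repair gene chosen here after its values were seen, overlaps Camk1 on the other strand and was lower in Hi in both regions (-0.55 in Ce and -0.78 in St, means of 103 and 69.7 in CeCo and CeHi). The counting is not stated to use strand, so fragments from the overlap, 2.22% of the 50-base windows of Camk1, cannot be told apart. Next to Mapk12 and Mapk11, among 31 tested genes each, Tubgcp6 was lower in CeHi (-0.38) and Lmf2 higher in StHi (0.38). Camkk1 had 3 called neighbours of 11 in Ce, Mapk7 3 of 14 and Camk2a 1 of 14, which was higher in CeHi. In St Camk1 and Mapk7 had 2 called neighbours each, all lower in StHi, where 2.66% of all genes were called. Prkar2b (9 tested) and Prkca (7 tested) had 0 in either region at the same threshold in limma.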

How the data were processed

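RNA-seq of 4 CeCo, 4 CeHi, 4 StCo and 3 StHi samples was used, grouped by their labels. The StHi sample that the authors excluded was not used here. Reads in pairs were aligned by the authors with TopHat2 to GRCm38 (mm10) and deposited a gene expression signal made with Cuffnorm 2.2.1 (per the labels), in which each fragment count is divided by a library-size factor, without any correction for the length of the gene. This was checked on the values, where 99.6% to 99.8% of low values were whole multiples of the value of 1 fragment (tolerance 0.1 of it). Genes with at least 1 CPM (normalized counts scaled to a common total) in 3 or more samples were tested, 15213 in all. Values scaled by TMM (edgeR 4.0.16, factors 0.993 to 1.01) were transformed to log2(value + 1) and fitted with limma 3.58.1 in R 4.3.3 (4 group means, trended and robust moderation, Benjamini-Hochberg over all genes tested, threshold 0.05), so a fold change is on the log2(value + 1) scale and understates low genes. edgeR and DESeq2 1.42.0 were run on the recovered fragments as alternatives, beside other pseudocounts (0.1 and 5), no filter, other scalings, sample weights, the replicate number as a block (and, chosen after seeing the data, as a random block in Co alone), each region alone and each sample left out. They called 952 and 1388 genes in Ce, against 903 by limma. Ratios were compared with exact permutation tests (scipy 1.17.1).

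Members and lists were chosen with earlier results of these data known. Results that need 1 of the members or 2 of the marker genes are not reported here, although all stay in the counts and fits. Values are given by sample for members called in a line contrast or the interaction and for genes in the ratios. The 4 of each family with the largest region difference are given in the same way. For Camk1, Camkk1, Prkca, Mapk7, Prkaca and Prkar1a the text prints single samples in Ce alone, and for Mapk8 and Mapk10 a range in Ce. List genes are named when called between lines or among the 2 largest region differences of their list. Positions and exon lengths are from the GRCm38 annotation, in which 40 members matched by symbol and 1 (Prkcc) by an older symbol. No 2 samples of a group agreed within sampling noise, with a chi-square per gene of 10.9 to 41.9 over 21 pairs of samples.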

Additional observations from a re-analysis of the deposited data

Results flagged for a closer look

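Within groups of 4 samples, 12 of 162 groups of values held 1 sample that lay far from the others by Dixon's test, and chance gives about 1 in 20. CeHi replicate 3 accounted for 4 of them, with Camkv at 930.0 (others 261 to 282), Camk2n1 at 15802 (12530.1 to 12736), Camk2n2 at 5545 (4095 to 4224) and Map3k14 at 411 (471 to 481). CeCo replicate 2 accounted for 3, with Camkk2 at 12170.4 (14387 to 14537), Camkv at 299.5 (268 to 269.8) and Prkar1a at 30536 (31186 to 31289). CeHi replicate 2 was low for Mapk9 at 10738 (11251 to 11352) and for Prkacb at 15604 (17303 to 17610.0). Camk1d was high in CeCo replicate 1 at 2976 (2751 to 2778), Dusp16 was high in CeCo replicate 0 at 2307 (2159.7 to 2182), and Prkch was low in CeHi replicate 1 at 91.8 (109.9 to 113).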

How the results depend on the processing

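Of 13 line differences of members, recomputed under the alternatives and with each sample left out, 276 of 333 values kept their direction and side of the threshold, 57 lost the call and 0 reversed, and all 375 region values of the 15 members named for their region difference that passed the filter in each region stayed called. Of 7 members called in Ce, alternatives called 6 to 8 and leaving out a sample 4 to 7. In St 1 was called, with 0 under edgeR or with St fitted alone, 2 with sample weights, and 0 to 2 leaving out a sample. Over both regions 5 were called, 3 with the Co replicate block below, 4 under edgeR, 6 with the replicate block, 7 with sample weights, and 2 to 5 leaving out a sample. The interaction had 0, with 4 under DESeq2, 3 with sample weights, and 0 to 1 leaving out a sample. Among pathway genes the 8 calls in Ce were 15 under DESeq2 and 4 to 10 leaving out a sample, and the 2 in St were 0 with St fitted alone, 6 with sample weights, 1 with the replicate block, and 0 to 3 leaving out a sample. The causes were not tested. Same-numbered samples of both regions correlated by 0.171 to 0.278 in Co, where the 12 other pairs had -0.163 to 0.0152, and by -0.0751 to 0.0513 in Hi, where the 9 others had -0.08 to 0.0731. The numbers thus go with pairs in Co and not in Hi, a hint from the data, since the labels name no shared mouse. The replicate block over both lines called 7 members in Ce, 1 in St and 948 genes in Ce in all (903 without it), and Mapk7 lost its call. A random block for same-numbered Co samples alone (correlation 0.168), added after seeing the data, called 7 members in Ce, 1 in St, 3 over both regions and 0 in the interaction. Counting error was largest for Mapk13, at 7.77 to 9.50 normalized counts in StHi, and 3 or 4 samples a group limit the precision.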
